A study of Mus musculus with 32 samples.

Results

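The comparison described here is the difference between the response of enhancer-deleted progenitors and the response of wild-type progenitors to interferon gamma (IFNg) given together with Pam3CSK4. It was taken as the log2 change of mutant cells, both agents over vehicle, minus the log2 change of wild-type cells, both agents over vehicle. It rests on 16 of the 32 libraries of the series, 4 in each of 4 groups named in the sample titles. A positive difference therefore means a larger rise or a smaller fall in mutant cells, and a negative difference the reverse. Log2 values are given ± SE from the fit, and mean levels ± SD over the 4 libraries of a group in CPM, which are counts scaled to the size of each library.

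The cells were mouse fetal liver hematopoietic progenitors of the lines hi-77-/- and hi-77+/+, grown in medium with estradiol, stem cell factor and G418. As background, lines of this kind are known to be immortalised with ER-HOXB8, a homeobox protein that estradiol makes active and that holds myeloid progenitors in division, and the labels do not name it. The mutant groups were hi-77-/- cells, genotype Gata2 -77-/-, which lack an upstream enhancer of Gata2, given IFNg at 1 ng/ml with Pam3CSK4 at 100 ng/ml for 4 h, or vehicle. The wild-type groups were hi-77+/+ cells under the same 2 conditions. All groups shared the medium given above. Each genotype was 1 line. Nothing in the labels ties the 4 libraries of a group to separate cultures, so the p-values below speak of the spread among libraries, which may be technical. Genotype and line cannot be told apart.

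IFNg binds the receptor chains IFNGR1 and IFNGR2 and acts through JAK kinases and STAT factors on genes for IRF transcription factors, immune GTPases and MHC class I presentation. Pam3CSK4 is a synthetic lipopeptide seen by the receptor pair TLR2 and TLR1, whose signal frees NF-kB from its inhibitors and turns on cytokines, chemokines and the genes for those same inhibitors. GATA2 is a zinc-finger factor of hematopoietic stem and progenitor cells, and both signals meet on many inflammatory promoters in myeloid cells.

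Library totals of the 16 libraries lay between 47.5 and 67.1 M expected counts, and 14869 genes had enough counts to be tested. Gata2 (ENSMUSG00000015053.14, chromosome 6, 88193891 to 88207032, build mm10) had 6.68, 6.04, 8.42 and 6.79 CPM in mutant libraries with both agents, 6.62, 8.03, 7.37 and 8.06 in mutant vehicle libraries, 39.9, 38.7, 38.6 and 39.3 in wild-type libraries with both agents and 35.1, 40.4, 54.7 and 43.4 in wild-type vehicle libraries. Every mutant library lay below every wild-type library, and neither genotype's response nor the difference between them passed the test (0.04 ± 0.14, edgeR adjusted p = 0.885). The progenitor markers Ptprc, Kit, Cd34, Spi1, Myb and Runx1 were present in all 4 groups, while the hepatocyte gene Alb, the stromal gene Col1a1, the endothelial gene Cdh5 and the T cell gene Cd3e had between 0 and 3 counts per group.

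Marker lists of other cell types were summed in each library. The 18 hepatocyte markers summed to 7.446 to 9.081 CPM and 8.471 to 9.783 CPM in mutant libraries with both agents and vehicle, and to 19.38 to 21.31 CPM and 21.01 to 22.76 CPM in wild-type libraries with both agents and vehicle, with 7 to 11 of the 18 at 0 in a group and most of the sum from Trf. Over the 4 groups, 23 T and NK cell markers summed to between 10.37 and 14.84 CPM with 7 to 10 at 0 in a group, and 20 stromal and endothelial markers to between 460.2 and 593.4 CPM with 3 to 8 at 0, mostly from Vim. The 20 mast cell, basophil and eosinophil markers stood well apart between genotypes, at 118.9 to 128.9 CPM and 135.8 to 147.4 CPM in mutant libraries with both agents and vehicle, and 684.2 to 701.9 CPM and 755.1 to 795.5 CPM in wild-type libraries. The 24 erythroid markers summed to 1534 to 1675 CPM and 1022 to 1107 CPM in mutant libraries with both agents and vehicle, and 1509 to 1595 CPM and 1271 to 1457 CPM in wild-type libraries, so that in each genotype the libraries with both agents lay above the vehicle ones. Of these 24, 6 and 7 had no counts in the mutant groups. The sum hides the single members: of 22 tested, 2 rose and 3 fell in mutant cells, and 1 rose and 13 fell in wild-type cells. Over all genes 23.7% rose and 20.1% fell in mutant cells, and 21.2% and 22.4% in wild-type cells. Against wild-type cells, 21 of the 22 were lower in mutant cells with vehicle, and with both agents 20 were lower and 1 higher. Of all 14869 genes, 4359 were lower with vehicle, and with both agents 4418 were lower and 4533 higher. The summed level of 34 monocyte, macrophage and dendritic markers was 1326 to 1399 CPM and 1258 to 1336 CPM in mutant libraries with both agents and vehicle, and 826.2 to 838.6 CPM and 692.2 to 786.5 CPM in the wild-type libraries with both agents and vehicle. Among those 34 markers, 3 and 5 had no counts in the mutant groups and 7 and 10 had none in the wild-type groups. The summed level of 24 neutrophil markers was 2367 to 2640 CPM and 2652 to 2752 CPM in the mutant groups with both agents and vehicle, and 3280 to 3541 CPM and 3719 to 3852 CPM in the wild-type groups, with no marker at 0. The part of such cells in the results was not tested, and in these bulk libraries fewer cells of a type and less RNA per cell cannot be told apart.

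The share of counts from genes classed here as structural RNA also moved with the groups. The class holds every mitochondrial gene, protein-coding ones included, and ribosomal, small nuclear, nucleolar, 7S and other small RNA genes, microRNAs among them. It was 18.8 to 27.8% and 23.5 to 27.9% in mutant libraries with both agents and vehicle, and 12.8 to 14.2% and 19.4 to 28.8% in wild-type libraries with both agents and vehicle. The share in wild-type libraries with both agents lay below every other library of the 16. Counts from a fit that carries this share as a covariate are given beside the main ones.

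Of the 14869 genes, 2347 (15.8%) differed in their combined response between genotypes at an adjusted p under 0.05, 1308 (8.8%) with a positive and 1039 (6.99%) with a negative difference. When the structural RNA share was a covariate, 1380 genes passed, 826 positive and 554 negative, and without mutant replicates 3 and 4 with both agents, the ones highest in structural RNA in their group, 1274 passed, 703 positive and 571 negative. Most differences were small, with a median size of 0.32 on the log2 scale. At least 2-fold differences numbered 154 (1.04%) on the positive and 58 (0.39%) on the negative side. The split between the signs depended on how the fit was made: fitted on the 16 libraries alone it was 710 positive and 1184 negative, with a minimum of 1 CPM it was 1054 and 1635, and without mutant replicate 1 with both agents it was 980.0 and 1598.

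With vehicle alone 7980 genes (53.7%) already differed between the genotypes. Each genotype's own response was broad, with 6513 genes (43.8%) called in mutant and 6491 (43.7%) in wild-type cells. Under the covariate these counts were 6871 and 3638, so the classes of rise and fall that follow hold for the fit without it. Among the 1308 positive differences, 388 genes rose in both genotypes, 413 rose in mutant cells without a call in wild-type cells, and 387 fell in wild-type cells without a call in mutant cells. A further 74 genes rose in mutant cells and fell in wild-type cells. Among the 1039 negative differences, 391 genes fell in mutant cells without a call in wild-type cells, 243 fell in both, 209 rose in wild-type cells without a call in mutant cells, and 110 rose in both. In 67 genes mutant cells fell and wild-type cells rose. A call in 1 genotype alone is not by itself a difference, and all of these genes passed the test of the difference.

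**Figure D1:**
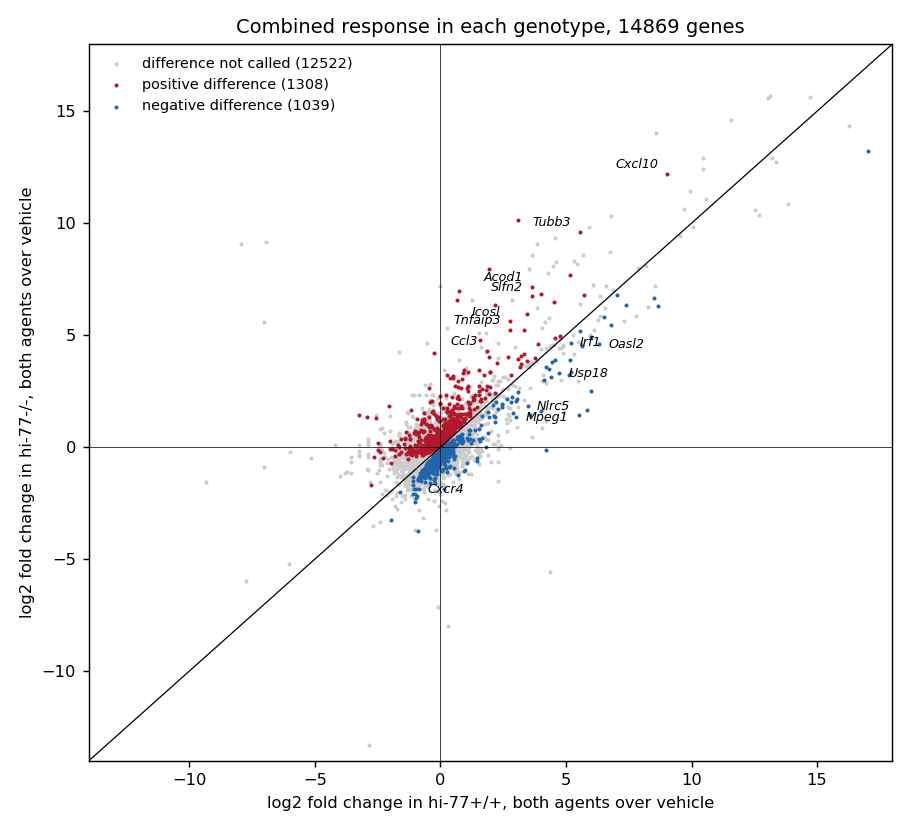
Log2 fold change with both agents over vehicle in mutant cells (hi-77-/-, vertical axis) against that in wild-type cells (hi-77+/+, horizontal axis), 1 point per tested gene, with the line of equal response. The 1308 genes with a positive difference lie above the line and the 1039 with a negative difference below it, and Cxcl10, Tubb3 and Acod1 stand far above it.

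Promoters of 3 genes that stand for the patterns below are shown first: Cxcl10, whose transcript answers both agents, Nfkbia, an NF-kB target that feeds back on NF-kB, and Gbp7, an interferon-induced GTPase with a negative difference. Each is the 250 bases before the RefSeq start site (GRCm38.p6, 5′ to 3′ on the gene's strand), and capitals mark matches, on either strand, to GGGANNNNCC (a kappaB-like motif), GAAANNGAAA (a motif like the interferon-stimulated response element) or TTCNNNGAA (a motif like the gamma-activated site).
Cxcl10, chr5:92348890-92349139, minus strand: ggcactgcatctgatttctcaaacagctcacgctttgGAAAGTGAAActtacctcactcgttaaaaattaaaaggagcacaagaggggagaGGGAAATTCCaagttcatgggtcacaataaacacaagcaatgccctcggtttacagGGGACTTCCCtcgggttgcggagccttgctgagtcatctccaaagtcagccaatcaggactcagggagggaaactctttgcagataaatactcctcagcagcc
Nfkbia, chr12:55492648-55492897, minus strand: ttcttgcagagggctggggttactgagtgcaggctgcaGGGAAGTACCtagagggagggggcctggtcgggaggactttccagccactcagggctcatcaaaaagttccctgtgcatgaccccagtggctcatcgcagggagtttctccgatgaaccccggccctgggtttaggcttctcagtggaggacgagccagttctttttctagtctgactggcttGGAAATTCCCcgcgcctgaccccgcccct
Gbp7, chr3:142530086-142530335, plus strand: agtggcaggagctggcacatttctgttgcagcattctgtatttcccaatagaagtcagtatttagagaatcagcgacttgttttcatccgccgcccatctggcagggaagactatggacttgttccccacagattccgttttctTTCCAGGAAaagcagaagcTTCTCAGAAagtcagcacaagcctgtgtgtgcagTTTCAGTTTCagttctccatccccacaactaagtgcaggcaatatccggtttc

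The Cxcl10 window held 2 kappaB-like matches and 1 response element match, the Nfkbia window 2 kappaB-like matches, and the Gbp7 window 1 response element match and 2 gamma-activated site matches. No matches overlapped one another. Over all 32851 windows of this length in the RefSeq table, 17.63% held the kappaB-like motif, 2.98% the response element motif and 7.02% the gamma-activated site motif. Of the tested genes 9906 could be matched to a window by symbol. Among the 104 matched genes with an at least 2-fold positive difference, 36 held a kappaB-like match and 7 a response element match. Among the 32 matched genes with an at least 2-fold negative difference, 4 held a kappaB-like match and 9 a response element match. The gamma-activated site motif was in 10 and 2 windows of these sets. Over all called genes with a window, whatever their size, the kappaB-like motif was in 27.16% of the 1009 positive and 28.97% of the 787 negative genes, the response element motif in 4.46% and 5.21%, and the gamma-activated site motif in 8.82% and 8.13%. Over all matched genes the shares were 25.65%, 3.32% and 7.1% in the same order of motifs. Over all called genes the positive and negative shares lay close together for each motif. These letters describe the windows and were not tested.

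Genes for NF-kB subunits, inhibitors and induced effectors had positive differences and no negative one. Toll-like receptor and adaptor genes upstream had calls in both directions, at shares near those over all genes. Of 21 tested genes for NF-kB subunits and inhibitors 13 (61.9%) had a positive difference, against 8.8% of all genes (median 0.39, against 0.02 over all genes), with 10 positive when the structural RNA share was a covariate. Of 28 NF-kB-induced effector genes 16 (57.1%) were positive and none negative (median 0.70, and 0.63 without the 4 members that had 3 counts or fewer in a group), with 14 under the covariate. Members and lists, here and below, were chosen with earlier results of these data known, so the shares are a description. Tnfaip3, Nfkbia, Nfkbiz and Bcl3, which encode proteins that restrain or redirect NF-kB, were among the positive genes. Tnip1, a partner of A20 named after its values were seen, rose 3.55-fold in mutant and 1.46-fold in wild-type cells (difference 1.28 ± 0.08, edgeR adjusted p = 5.7e-15).

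The Tnfaip3 locus (ENSMUSG00000019850.11, chromosome 10, 19000910 to 19015657) is the gene of A20, which edits ubiquitin chains to end NF-kB signalling. It had 37.3, 41.1, 39.8 and 35.3 CPM in mutant libraries with both agents and 1.17, 1.11, 0.849 and 0.947 CPM with vehicle. In wild-type libraries it had 13.8, 13.3, 14.8 and 14.3 CPM with both agents and 2.21, 1.85, 2.21 and 2.07 CPM with vehicle. Mutant libraries were thus the lowest with vehicle and the highest with both agents, with no overlap between any 2 groups. Fitted fold changes were 37.7 in mutant and 6.75 in wild-type cells, a difference of 2.48 ± 0.12 (log2, edgeR adjusted p = 4.0e-17).

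Nfkbia (ENSMUSG00000021025.8, chromosome 12, 55489410 to 55492647) encodes IkB alpha, the inhibitor that carries NF-kB out of the nucleus. Its levels were 49.5, 49.4, 54.8 and 50.01 CPM in mutant libraries with both agents and 9.07, 7.84, 9.47 and 9.28 CPM with vehicle, and 24.1, 22.4, 26.8 and 24.4 CPM in wild-type libraries with both agents and 8.79, 8.04, 8.62 and 8.48 CPM with vehicle. The vehicle groups overlapped, and with both agents every mutant library lay above every wild-type library, which gave a difference of 0.98 ± 0.09 (adjusted p = 3.3e-10). The nuclear IkB protein gene Nfkbiz had 52.8 ± 3.42 and 5.63 ± 0.313 CPM in the mutant groups with both agents and vehicle, and 15.3 ± 0.507 and 4.57 ± 0.289 CPM in the wild-type groups (SD, n = 4 each), a difference of 1.49 ± 0.10 (edgeR adjusted p = 1.3e-13). Bcl3, a coactivator of the same family, had a difference of 1.9 ± 0.47 (edgeR adjusted p = 0.00539), but without wild-type vehicle replicate 3 it fell to 0.97 and was not called. Of 27 Toll-like receptor and adaptor genes 3 were positive and 3 negative (11.1% each, median 0.06), 4 and 3 under the covariate. Over all genes 8.8% were positive and 6.99% negative. The kinase gene Irak2, which relays the receptor signal, rose 6.16-fold in mutant and 1.78-fold in wild-type cells (difference 1.79 ± 0.13, edgeR adjusted p = 1.9e-12). The other positive genes were Irak3 and Tollip, restraints on the same signal, with differences of 0.42 ± 0.07 and 0.2 ± 0.06. Besides Tlr6, given below, Irak4, a kinase needed for that signal, and Sigirr, an inhibitory receptor, were negative, with differences of -0.27 ± 0.07 and -0.37 ± 0.06 (edgeR adjusted p = 0.0086 and 5.2e-05), each in all 44 alternative fits.

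Among the effectors, Tnfaip2 (ENSMUSG00000021281.15, chromosome 12, 111442469 to 111455018), a TNF-induced gene for an endothelial and myeloid exocyst-like protein, showed the same crossing as Tnfaip3. It had 133, 135, 136 and 140.2 CPM in mutant libraries with both agents and 7.81, 9.51, 8.12 and 8.27 CPM with vehicle, and 100.2, 97.5, 100.4 and 104 CPM in wild-type libraries with both agents and 24.7, 26.6, 25.1 and 28.4 CPM with vehicle. The mutant libraries were below the wild-type ones with vehicle and above them with both agents (difference 2.08 ± 0.07, edgeR adjusted p = 5.2e-21). Ptgs2, the inducible cyclooxygenase of prostaglandin synthesis, had 123 ± 8.74 and 12.1 ± 0.65 CPM in the mutant groups with both agents and vehicle, and 53.1 ± 1.79 and 13.5 ± 1.07 CPM in the wild-type groups, with overlapping vehicle libraries (difference 1.37 ± 0.08, edgeR adjusted p = 2.0e-15). Fas, a death receptor gene, had a difference of 1.95 ± 0.67 (edgeR adjusted p = 0.0447) from 18 and 15 summed vehicle counts in mutant and wild-type cells, and was called in 21 of 44 alternative fits (range 0.59 to 2.49).

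Several chemokine and cytokine transcripts had large positive differences. Of 18 tested cytokine genes 8 (44.4%) had a positive and 1 (5.6%) a negative difference, against 8.8% and 6.99% of all genes. Of 15 tested chemokine genes 4 (26.7%) were positive and none negative. The medians were 0.56 and 1.67, and 0.62 and 1.57 without the 1 cytokine and 7 chemokine genes that had 3 counts or fewer in a group. Under the structural RNA covariate the positive calls were 6 and 3. The other 11 chemokines were not called. One of them, named after its values were seen, was Cxcl9, an interferon-induced chemokine with no counts in either vehicle group, at 18.9, 14.6, 15.1 and 19.7 CPM in mutant and 3.04, 3.2, 2.73 and 3.28 CPM in wild-type libraries with both agents. Every mutant library lay above every wild-type library there, and the fit cannot give a difference of responses for a gene at 0 in both vehicle groups.

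Cxcl10 (ENSMUSG00000034855.13, chromosome 5, 92346638 to 92348889), the promoter of which is shown above, encodes a chemokine that draws CXCR3-bearing lymphocytes. It had 876, 865, 765 and 883 CPM in mutant libraries with both agents and 0.276, 0.235, 0.0832 and 0.128 CPM with vehicle. In wild-type libraries it had 215, 209.9, 218 and 221 CPM with both agents and 0.532, 0.422, 0.353 and 0.334 CPM with vehicle. The mutant libraries were lowest with vehicle and about 4 times the wild-type level with both agents. The log2 changes were 12.20 in mutant and 9.03 in wild-type cells, a difference of 3.17 ± 0.27 (edgeR adjusted p = 3.4e-10), with only 41 and 88 counts summed over the mutant and wild-type vehicle groups.

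Ccl3 (ENSMUSG00000000982.5, chromosome 11, 83647844 to 83649355), a chemokine for monocytes and T cells that also acts on progenitors, had 215, 229, 213 and 229 CPM in mutant libraries with both agents and 12, 10.9, 10.6 and 11.3 CPM with vehicle. Its wild-type values were 15, 15.8, 16.3 and 17 CPM with both agents and 4.08, 4.64, 4.26 and 4.62 CPM with vehicle. Mutant libraries were higher in both conditions, and the vehicle level of mutant cells came close to the stimulated level of wild-type cells. The response was 19.8-fold in mutant and 3.64-fold in wild-type cells (difference 2.44 ± 0.08, edgeR adjusted p = 3.8e-21). Its neighbour in function Ccl4 was scarce, at 3.32 ± 0.388 and 0.493 ± 0.0673 CPM in mutant cells with both agents and vehicle and 0.364 ± 0.0347 and 0.169 ± 0.0277 CPM in wild-type cells (difference 1.63 ± 0.37, edgeR adjusted p = 0.00218).

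Il1b, the gene of interleukin 1 beta, had 2.01, 2.27, 2.2 and 2.35 CPM in mutant libraries with both agents and 0.0649, 0.0427, 0.0998 and 0.0964 CPM with vehicle, against 0.499, 0.274, 0.538 and 0.291 CPM in wild-type libraries with both agents and 0.138, 0.219, 0.0801 and 0.0953 CPM with vehicle. Vehicle libraries overlapped at a level of 18 and 29 summed counts in mutant and wild-type cells, and with both agents the mutant libraries lay apart (difference 3.22 ± 0.43, edgeR adjusted p = 1.4e-06). Il1rn, whose product blocks the interleukin 1 receptor, rose 9.95-fold in mutant and 1.88-fold in wild-type cells (difference 2.41 ± 0.29, edgeR adjusted p = 1.8e-07). Tnf, named after its values were seen, had 92.1 ± 3.91 and 8.96 ± 0.442 CPM in mutant cells with both agents and vehicle and 33.7 ± 0.874 and 8.5 ± 0.561 CPM in wild-type cells (difference 1.38 ± 0.07, edgeR adjusted p = 4.0e-17). The vehicle libraries of the genotypes overlapped for Tnf, and with both agents every mutant library was higher. The lymphotoxin beta gene Ltb had a difference of 1.53 ± 0.43 (edgeR adjusted p = 0.0136), which was not called with the covariate.

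**Figure D2:**
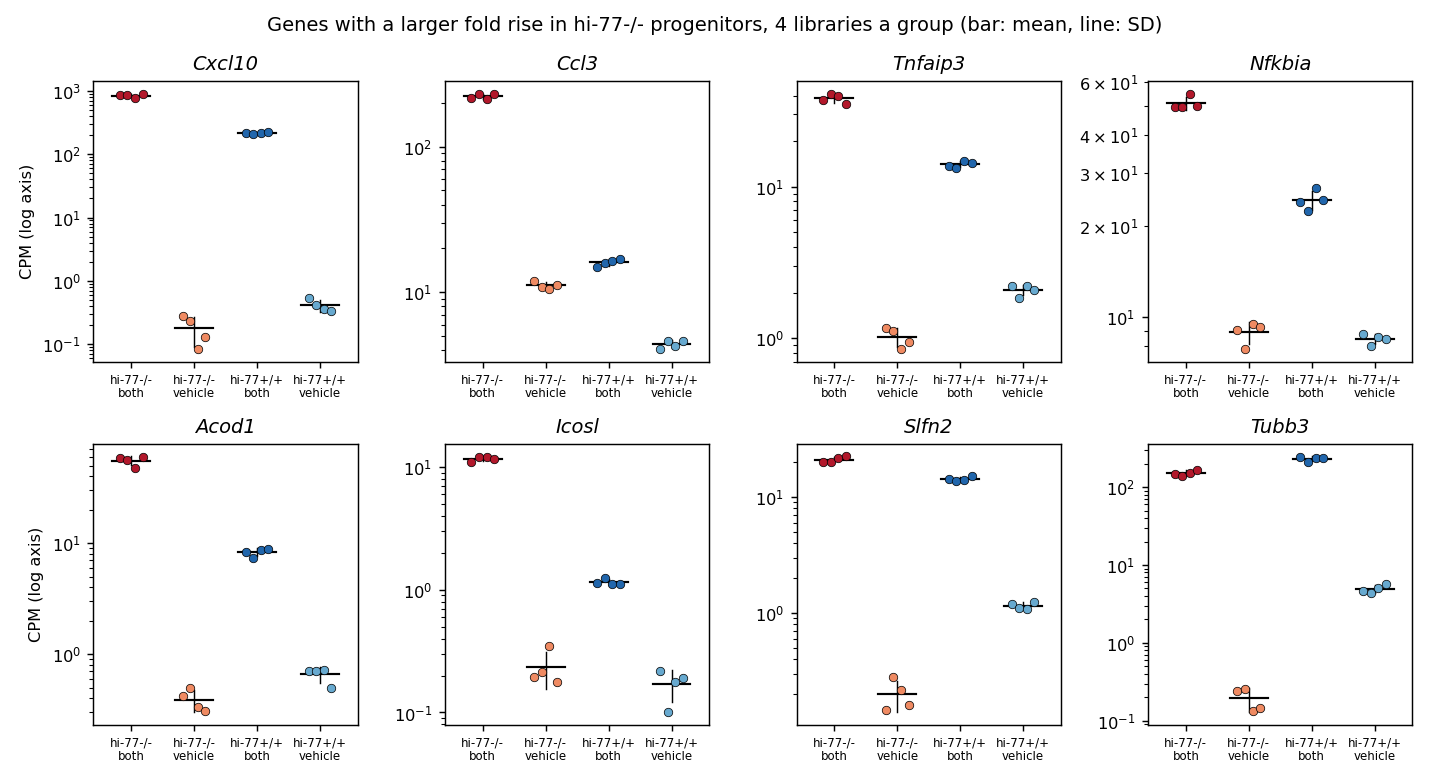
CPM on a log axis in each of the 4 libraries of mutant cells (hi-77-/-) with both agents and vehicle and of wild-type cells (hi-77+/+) with both agents and vehicle, for 8 genes with a larger fold rise in mutant cells, with the mean as a bar and the SD as a line. In 7 of the 8 panels the mutant libraries with both agents are the highest, and in Tubb3 the wild-type ones are.

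Among enzymes and surface ligands of activated myeloid cells, called differences were more often positive than negative. Of 21 activation metabolism genes 10 (47.6%) were positive and 2 negative (median 0.18), and of 23 costimulation and adhesion genes 12 (52.2%) were positive and none negative (median 0.33), against 8.8% positive and 6.99% negative over all genes. Under the covariate these counts were 8 and 1, and 11 and none. Of 11 complement and acute-phase genes 4 (36.4%) were positive and none negative (median 0.91, and 0.70 without the 4 at 3 counts or fewer in a group), the same under the covariate.

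Acod1 (ENSMUSG00000022126.6, chromosome 14, 103046977 to 103056573), which makes the antimicrobial metabolite itaconate, had 58, 56, 47.9 and 59.4 CPM in mutant libraries with both agents and 0.422, 0.491, 0.333 and 0.305 CPM with vehicle. Wild-type libraries had 8.38, 7.42, 8.71 and 8.84 CPM with both agents and 0.709, 0.708, 0.721 and 0.5 CPM with vehicle. It rose 144-fold in mutant and 12.4-fold in wild-type cells (difference 3.54 ± 0.21, edgeR adjusted p = 4.6e-15), from a vehicle level that was lower in every mutant library. Nox1, a subunit of a superoxide-producing oxidase, had 7.65 ± 1.09 and 0.0617 ± 0.0749 CPM in mutant cells with both agents and vehicle and 3.74 ± 0.435 and 0.229 ± 0.0312 CPM in wild-type cells (difference 2.82 ± 0.43, edgeR adjusted p = 1.3e-05).

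Icosl (ENSMUSG00000000732.9, chromosome 10, 78069302 to 78083913), the ligand of the T cell costimulator ICOS, had 11.1, 12, 12.1 and 11.6 CPM in mutant libraries with both agents and 0.195, 0.214, 0.349 and 0.177 CPM with vehicle. The wild-type values were 1.14, 1.25, 1.12 and 1.11 CPM with both agents and 0.217, 0.101, 0.176 and 0.191 CPM with vehicle. Vehicle libraries of the genotypes overlapped, and with both agents the mutant mean was about 10 times the wild-type mean (difference 2.87 ± 0.33, edgeR adjusted p = 5.0e-08). The acute-phase genes Hp, for haptoglobin, and C3, for complement component 3, took another form. Hp had 20.6 ± 1.88 and 4.29 ± 0.313 CPM in mutant cells with both agents and vehicle against 42.7 ± 2.69 and 25.9 ± 1.61 CPM in wild-type cells, so mutant cells rose further and stayed lower (difference 1.55 ± 0.09, edgeR adjusted p = 4.6e-15). The same held for C3, at 3.64 and 1.09 CPM in mutant cells and 23.3 and 19.5 CPM in wild-type cells (difference 1.47 ± 0.13, edgeR adjusted p = 1.1e-10).

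The greatest positive difference among genes that met the naming rule's depth was in Tubb3 (ENSMUSG00000062380.4, chromosome 8, 123411424 to 123422015), a beta tubulin known mainly from neurons. It had 148, 138, 152 and 168 CPM in mutant libraries with both agents and 0.243, 0.256, 0.133 and 0.145 CPM with vehicle. In wild-type libraries it had 245, 208, 236 and 235 CPM with both agents and 4.59, 4.42, 5.1 and 5.65 CPM with vehicle. Mutant libraries were lower in both conditions, so the difference of 4.06 ± 0.17 (edgeR adjusted p = 5.7e-18) came with a CPM change that was larger in wild-type cells (151 CPM in mutant and 226 CPM in wild-type cells). Slfn2 (ENSMUSG00000072620.3, chromosome 11, 83065112 to 83070678), a schlafen protein that keeps immune cells quiescent, had 20.2, 19.96, 21.4 and 22.3 CPM in mutant libraries with both agents and 0.146, 0.278, 0.216 and 0.161 CPM with vehicle, and 14.2, 13.8, 14 and 15.1 CPM in wild-type libraries with both agents and 1.2, 1.1, 1.09 and 1.24 CPM with vehicle. It crossed, with mutant libraries lower with vehicle and higher with both agents (difference 3.1 ± 0.21, edgeR adjusted p = 2.4e-13).

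Stx11, a syntaxin of cytotoxic granule release, rose 6.62-fold in mutant and 1.49-fold in wild-type cells (difference 2.16 ± 0.10, edgeR adjusted p = 6.6e-18). Tgm2, a transglutaminase that crosslinks proteins, rose 8.2-fold in mutant and 1.81-fold in wild-type cells (difference 2.18 ± 0.23, edgeR adjusted p = 7.9e-09). Tent5c, a noncanonical poly(A) polymerase, rose 10.2-fold in mutant and 2.12-fold in wild-type cells (difference 2.27 ± 0.21, edgeR adjusted p = 7.5e-10). With 9 of the genes described above these make up the 12 largest positive differences at 5 CPM or more in a group and 10 counts or more in each, and all 12 were called in each of the 44 alternative fits.

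Some genes moved in opposite directions. Jun, a subunit of the AP-1 transcription factor, had 5.46, 5.9, 6.25 and 6.45 CPM in mutant libraries with both agents and 3.85, 3.55, 4.26 and 3.47 CPM with vehicle, and 3.82, 3.03, 3.65 and 2.75 CPM in wild-type libraries with both agents and 5.08, 5.89, 8.65 and 6.22 CPM with vehicle. The mutant groups did not overlap and stood in the reverse order to the wild-type groups (log2 0.67 ± 0.13 in mutant and -0.96 ± 0.13 in wild-type cells, difference 1.63 ± 0.18, edgeR adjusted p = 3.4e-08). Of 23 immediate-early factors, the list that holds Jun, 8 (34.8%) were positive and 2 (8.7%) negative (median 0.52), against 8.8% and 6.99% of all genes.

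Gfi1b, a transcriptional repressor needed for erythroid and megakaryocyte development, had 29.7, 34.9, 34.8 and 30.3 CPM in mutant libraries with both agents and 15.5, 18.4, 19 and 17 CPM with vehicle, against 13.9, 15, 14.9 and 13.9 CPM in wild-type libraries with both agents and 16, 17, 19.6 and 19.1 CPM with vehicle. It rose in mutant and fell in wild-type cells, from overlapping vehicle libraries (difference 1.21 ± 0.10, edgeR adjusted p = 5.8e-11). The part of the summed erythroid markers given above in this was not tested. Cebpd, a C/EBP factor of the acute-phase response, had 9.48 ± 1.61 and 3.99 ± 0.527 CPM in mutant cells with both agents and vehicle and 3.21 ± 0.465 and 5.11 ± 1.08 CPM in wild-type cells, where the libraries overlapped (difference 1.91 ± 0.19, edgeR adjusted p = 2.9e-09). P2rx1, an ATP-gated ion channel of platelets and myeloid cells, rose 1.71-fold in mutant cells and had a fold change of 0.851 in wild-type cells (difference 1.01 ± 0.06, edgeR adjusted p = 3.5e-15). Maml2, a Notch coactivator, and Pdp1, a phosphatase of pyruvate dehydrogenase, also rose in mutant and fell in wild-type cells, with differences of 1.12 ± 0.20 and 0.99 ± 0.14. Rras2 and Zfp345 were called in these directions too, with at most 17 counts summed over a wild-type group. Every wild-type library with both agents had 0 CPM of Rras2. For Maml2, Rras2 and Zfp345 the wild-type libraries with both agents and vehicle overlapped. The differences of Rras2 and Zfp345 ranged between 2.06 and 5.16 and between 1.18 and 2.19 over the alternatives, with calls in 42 and 38 of 44.

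A list of cholesterol genes, which holds the exporter Abcg1 beside synthesis genes, leaned to positive differences. Of its 25 tested members 15 (60%) were positive and 1 (4%) negative (median 0.30), with 17 and 1 under the covariate. Over all genes 8.8% were positive and 6.99% negative. In mutant cells 16 of the 25 rose and 3 fell with both agents, when 23.7% of all genes rose and 20.1% fell, while in wild-type cells 3 rose and 10 fell, when 21.2% rose and 22.4% fell. Hmgcs1, the synthase ahead of the rate-limiting step, had 287, 362, 316 and 299 CPM in mutant libraries with both agents and 219, 227, 242 and 214 CPM with vehicle, and 213, 258, 259.9 and 217 CPM in wild-type libraries with both agents and 262, 295, 269 and 247 CPM with vehicle. The mutant groups did not overlap and the wild-type groups did (difference 0.67 ± 0.12, edgeR adjusted p = 2.5e-04). Msmo1, a sterol C4 demethylation oxidase, had a fold change of 1.36 in mutant and 0.742 in wild-type cells, both called (difference 0.87 ± 0.14, edgeR adjusted p = 8.3e-05). The negative member was Abcg1, a cholesterol exporter, which fell further in mutant cells (difference -0.44 ± 0.09, edgeR adjusted p = 6.9e-04).

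The interferon arm did not share one direction. Of 24 interferon receptor and signalling genes 8 (33.3%) had a positive and 7 (29.2%) a negative difference (median 0.11), 6 and 6 under the covariate. Over all genes the shares were 8.8% and 6.99%. Ifngr1 (ENSMUSG00000020009.13, chromosome 10, 19591949 to 19610229), the ligand-binding receptor chain, had 58.5, 58.3, 57.4 and 53.9 CPM in mutant libraries with both agents and 106, 104, 107 and 102 CPM with vehicle, and 69.9, 74.8, 70.3 and 71.3 CPM in wild-type libraries with both agents and 91.4, 93.2, 84.4 and 90.8 CPM with vehicle. It fell in both genotypes and further in mutant cells, which began higher and ended lower (difference -0.55 ± 0.06, edgeR adjusted p = 1.8e-08). The signalling chain Ifngr2 had 39.1, 41.4, 45.9 and 41.8 CPM in mutant libraries with both agents and 30.3, 30.3, 30.3 and 30.4 CPM with vehicle, and 24.3, 24.9, 25.4 and 25.9 CPM in wild-type libraries with both agents and 28.2, 26.8, 24.1 and 28.6 CPM with vehicle. It rose in mutant cells, while the wild-type groups overlapped (difference 0.57 ± 0.07, edgeR adjusted p = 9.6e-08).

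Irf1, an early interferon-induced transcription factor, had 579, 577, 563 and 564 CPM in mutant libraries with both agents and 22.1, 24.8, 21.7 and 21.5 CPM with vehicle. In wild-type libraries it had 414, 404, 415 and 418 CPM with both agents and 11.2, 12.1, 10.4 and 11.6 CPM with vehicle. Mutant libraries were higher in both conditions, by a smaller ratio with both agents, so the difference was negative (-0.52 ± 0.06, edgeR adjusted p = 4.4e-08). Irf8, a factor of monocyte and dendritic cell fate, had 212 ± 9.58 and 17.8 ± 1.17 CPM in mutant cells with both agents and vehicle and 134 ± 6.22 and 7.34 ± 0.407 CPM in wild-type cells (difference -0.62 ± 0.07, edgeR adjusted p = 3.7e-08). Socs3, which inhibits JAK kinases, went the other way, at 42.9 ± 3.29 and 2.38 ± 0.401 CPM in mutant cells and 12.4 ± 0.713 and 1.23 ± 0.0487 CPM in wild-type cells (difference 0.84 ± 0.13, edgeR adjusted p = 1.0e-05).

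Usp18, the protease that removes ISG15 and dampens interferon signalling, had 23.7, 21.9, 22 and 24 CPM in mutant libraries with both agents and 2.26, 2.54, 2.23 and 2.31 CPM with vehicle, and 9.24, 9.53, 9.15 and 9.25 CPM in wild-type libraries with both agents and 0.433, 0.236, 0.337 and 0.429 CPM with vehicle. Mutant libraries were higher in both conditions, 9.82-fold up on stimulation against 26.3-fold in wild-type cells (difference -1.42 ± 0.17, edgeR adjusted p = 9.2e-08). Irf7, the factor that amplifies type I interferon, had 12.3, 11.5, 13 and 13 CPM in mutant libraries with both agents and 1.92, 1.3, 1.55 and 1.43 CPM with vehicle, and 16, 13.9, 14.7 and 15.8 CPM in wild-type libraries with both agents and 0.985, 0.978, 0.785 and 0.667 CPM with vehicle. Here mutant libraries were higher with vehicle and lower with both agents (difference -1.13 ± 0.17, edgeR adjusted p = 1.2e-05).

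The interferon-induced GTPases, which attack the vacuoles of intracellular microbes, had a negative difference together with higher levels. Of 18 tested members none had a positive and 7 a negative difference (median -0.60), against 6.99% of all genes, and 5 negative under the covariate. Without the 10 members that had 3 counts or fewer in a vehicle group the median was -0.53. All 18 rose in both genotypes, and all 18 were higher in mutant than wild-type libraries with both agents, where 8951 (60.2%) of all genes differed and 4533 (30.5%) were higher. With vehicle 11 were higher in mutant cells, against 3621 (24.4%) of all genes. On the CPM scale, which was not tested, all 18 changed more in mutant cells. The log2 difference and the CPM difference thus had opposite signs for all 7 negative calls, as for 68 (6.54%) of the 1039 negative calls over all genes.

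Gbp7 (ENSMUSG00000040253.15, chromosome 3, 142530342 to 142550149), a guanylate-binding protein with its promoter shown above, had 466, 446, 371 and 431 CPM in mutant libraries with both agents and 13.1, 14.7, 14.3 and 13.9 CPM with vehicle. In wild-type libraries it had 244, 229, 226 and 258 CPM with both agents and 4.12, 3.17, 3.73 and 4.03 CPM with vehicle. Mutant libraries were above wild-type ones in both conditions, with changes of 30.7-fold and 64-fold in mutant and wild-type cells (difference -1.06 ± 0.10, edgeR adjusted p = 7.1e-09). Ifi47, an immunity-related GTPase, had 194, 178, 167 and 188 CPM in mutant libraries with both agents and 7.68, 7.5, 8.55 and 7.96 CPM with vehicle, and 72.1, 68, 66.2 and 75.8 CPM in wild-type libraries with both agents and 1.16, 1.59, 1.54 and 1.29 CPM with vehicle (difference -1.13 ± 0.12, edgeR adjusted p = 7.7e-08). The groups again stood in the same order.

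Gvin1, a giant inducible GTPase, had 431 ± 48 and 9.93 ± 0.776 CPM in mutant cells with both agents and vehicle and 122 ± 9.41 and 1.08 ± 0.343 CPM in wild-type cells (difference -1.33 ± 0.20, edgeR adjusted p = 3.3e-05). Tgtp2 had 849 ± 56.4 CPM and 0.0919 ± 0.0595 CPM in mutant cells with both agents and vehicle, and 290.5 ± 15.3 CPM in wild-type cells with both agents, with no counts in any wild-type vehicle library. The wild-type mean with both agents was 21600 times a floor of 3 counts over the unscaled library totals of the wild-type vehicle group. The fitted difference of Tgtp2, which depends on the absent wild-type vehicle counts, was not called when any 1 wild-type vehicle library was left out (range over alternatives -4.09 to -0.19). Several of these GTPases have near-identical copies, such as Tgtp1 beside Tgtp2, between which the authors' counting divides reads by a model.

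**Figure D3:**
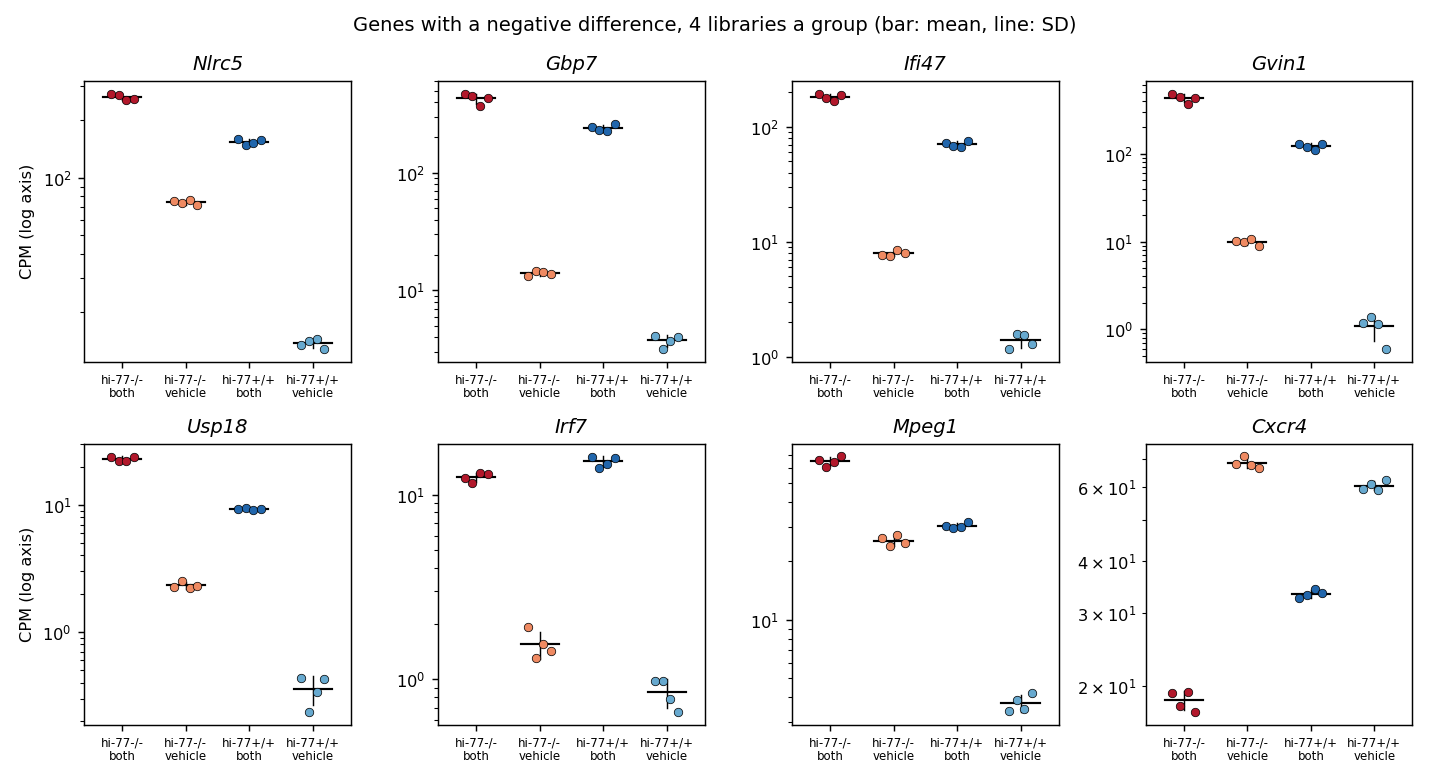
CPM on a log axis in each of the 4 libraries of mutant cells (hi-77-/-) with both agents and vehicle and of wild-type cells (hi-77+/+) with both agents and vehicle, for 8 genes with a negative difference, with the mean as a bar and the SD as a line. Nlrc5, Gbp7, Ifi47, Gvin1, Usp18 and Mpeg1 are higher in mutant libraries in both conditions, Irf7 crosses, and Cxcr4 is lowest in mutant libraries with both agents.

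Antiviral effectors and sensors leaned the same way, with 6 positive (16.2%) and 13 negative (35.1%) of 37 (median -0.21), 5 and 12 under the covariate. Over all genes 8.8% were positive and 6.99% negative. Of the 13 negative genes 8 had the larger CPM change in mutant cells. Oasl2, of the family that senses double-stranded RNA, had 8.77, 7.31, 6.29 and 7.45 CPM in mutant libraries with both agents and 0.373, 0.32, 0.349 and 0.177 CPM with vehicle, and 11.9, 10.5, 12.1 and 12.6 CPM in wild-type libraries with both agents and 0.0394, 0.169, 0.192 and 0.167 CPM with vehicle. Wild-type libraries ended higher, from overlapping vehicle libraries (difference -1.72 ± 0.38, edgeR adjusted p = 0.00201). Oas2 and Oas3, which make the second messenger that activates RNase L, had differences of -1.88 ± 0.45 and -1.87 ± 0.59 (edgeR adjusted p = 0.00345 and 0.0263) at a mean of at most 1.99 CPM in any group, and Oas3 was not called without mutant vehicle replicate 1 or 2 or wild-type vehicle replicate 3 or 4 (range over alternatives -2.25 to -1.32). Oas3 was called in 36 of 44 alternatives, and the covariate and limma were among those that did not call it. Oas2 was called in 43, and not without wild-type vehicle replicates 1 and 4. Parp12, an antiviral mono-ADP-ribosyltransferase, rose 14.7-fold in mutant and 36.2-fold in wild-type cells (difference -1.3 ± 0.21, edgeR adjusted p = 2.9e-05). The exonuclease gene Isg20 went the other way (difference 0.81 ± 0.14, edgeR adjusted p = 1.1e-04).

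Of 22 MHC class I presentation genes 3 (13.6%) were positive and 4 (18.2%) negative, against 8.8% and 6.99% of all genes. Nlrc5 (ENSMUSG00000074151.13, chromosome 8, 94434356 to 94527272), the transactivator of MHC class I genes, had 274, 271, 253 and 256 CPM in mutant libraries with both agents and 75.4, 73.7, 76.6 and 71.7 CPM with vehicle. In wild-type libraries it had 159.8, 148, 151 and 158 CPM with both agents and 13.4, 14, 14.4 and 12.8 CPM with vehicle. The mutant vehicle libraries already stood several-fold above the wild-type ones, and the rise was 3.55-fold in mutant against 11.3-fold in wild-type cells (difference -1.67 ± 0.07, edgeR adjusted p = 3.5e-19). The peptide transporter gene Tap1 had a difference of -0.54 ± 0.06 (edgeR adjusted p = 2.2e-08), while the heavy chain genes H2-K1 and H2-D1 had small positive ones of 0.27 ± 0.04 and 0.2 ± 0.05 (edgeR adjusted p = 2.7e-05 and 0.00316). H2-D1 was not called with the structural RNA covariate, where the list had 1 positive and 4 negative genes.

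Mpeg1, the pore-forming perforin-2 of phagocytes, had 66, 60.8, 64.5 and 68.7 CPM in mutant libraries with both agents and 26.2, 23.8, 27.1 and 24.7 CPM with vehicle, and 30.4, 29.4, 29.9 and 31.6 CPM in wild-type libraries with both agents and 3.41, 3.88, 3.48 and 4.19 CPM with vehicle. It was higher in mutant libraries in both conditions and rose less in fold (difference -1.67 ± 0.07, edgeR adjusted p = 2.7e-18). The summed monocyte markers given above were also higher in mutant libraries, but their list was mixed. Of its 20 tested members, 11 were higher and 8 lower in mutant cells with vehicle, and 13 higher and 7 lower with both agents. Over all genes 24.4% were higher with vehicle and 30.5% with both agents, and 4359 and 4418 of the 14869 were lower. The part of these markers in the Mpeg1 values was not tested.

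Of 31 chemokine and cytokine receptor genes 4 (12.9%) were positive and 7 (22.6%) negative, against 8.8% and 6.99% of all genes. Under the covariate 4 were positive and 4 negative. Cxcr4, which holds progenitors in their niche, had 19.3, 18, 19.4 and 17.4 CPM in mutant libraries with both agents and 68.2, 71, 67.8 and 66.8 CPM with vehicle, and 32.6, 33, 34.2 and 33.5 CPM in wild-type libraries with both agents and 59.4, 60.9, 59 and 62.3 CPM with vehicle. It fell in both genotypes, and mutant cells began higher and ended lower (difference -1.03 ± 0.06, edgeR adjusted p = 8.4e-16). Csf2rb, the shared receptor chain for GM-CSF, interleukin 3 and interleukin 5, had 74 ± 2.38 and 37.4 ± 1.71 CPM in mutant cells with both agents and vehicle and 293 ± 13 and 96.5 ± 8.36 CPM in wild-type cells (difference -0.62 ± 0.06, edgeR adjusted p = 6.6e-09).

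The Toll-like receptor genes for Pam3CSK4 itself had no called difference. Tlr2 had 14.5 ± 1.07 and 5.02 ± 0.532 CPM in mutant cells with both agents and vehicle and 3.03 ± 0.621 and 1.3 ± 0.097 CPM in wild-type cells, and its difference was not called (0.29 ± 0.16, edgeR adjusted p = 0.22). Tlr1 had 2.83 ± 0.351 and 1.01 ± 0.213 CPM in mutant cells, with 22 and 7 counts in all in the wild-type groups with both agents and vehicle (difference 0.03 ± 0.54, edgeR adjusted p = 0.99). Tlr6, which pairs with TLR2 for other lipopeptides, had a negative difference (-0.53 ± 0.16, edgeR adjusted p = 0.0226), not called without mutant vehicle replicate 2 or without wild-type replicate 2 with both agents (range over alternatives -0.61 to -0.44), and Cd14, a coreceptor, had none that passed (0.06 ± 0.15, edgeR adjusted p = 0.857). Tlr1 and Tlr2 were above the wild-type level in every mutant library of both conditions.

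Of 33 transcription factor genes of hematopoietic progenitors 10 (30.3%) were positive and 6 (18.2%) negative, and 7 and 5 under the covariate. Over all genes the shares were 8.8% and 6.99%. The positive count fell to 5 without mutant replicate 3 with both agents, and to 6 without mutant vehicle replicate 1 or wild-type replicate 4 with both agents. Myb, which keeps progenitors immature and dividing, had 574, 569.5, 516 and 532 CPM in mutant libraries with both agents and 705, 644, 661 and 700.4 CPM with vehicle, and 629, 613, 605 and 642 CPM in wild-type libraries with both agents and 603, 601, 568 and 552 CPM with vehicle. It fell in mutant and rose in wild-type cells, with mutant libraries above the wild-type ones with vehicle and below them with both agents (difference -0.41 ± 0.06, edgeR adjusted p = 2.4e-06). Meis1, a homeobox cofactor of stem and progenitor cells, fell in both genotypes, to 24 ± 0.646 CPM in mutant cells with both agents against 51.3 ± 1.3 CPM with vehicle, and to 24.8 ± 1.45 CPM in wild-type cells against 34.5 ± 1.41 CPM with vehicle (difference -0.61 ± 0.05, edgeR adjusted p = 1.8e-10). Outside the lists, Lpin1, a phosphatidate phosphatase of lipid synthesis, and Mtus1, a microtubule-associated tumour suppressor, also fell further in mutant cells, with differences of -1.29 ± 0.20 and -1.14 ± 0.09 (edgeR adjusted p = 2.2e-05 and 2.2e-12).

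**Figure D4:**
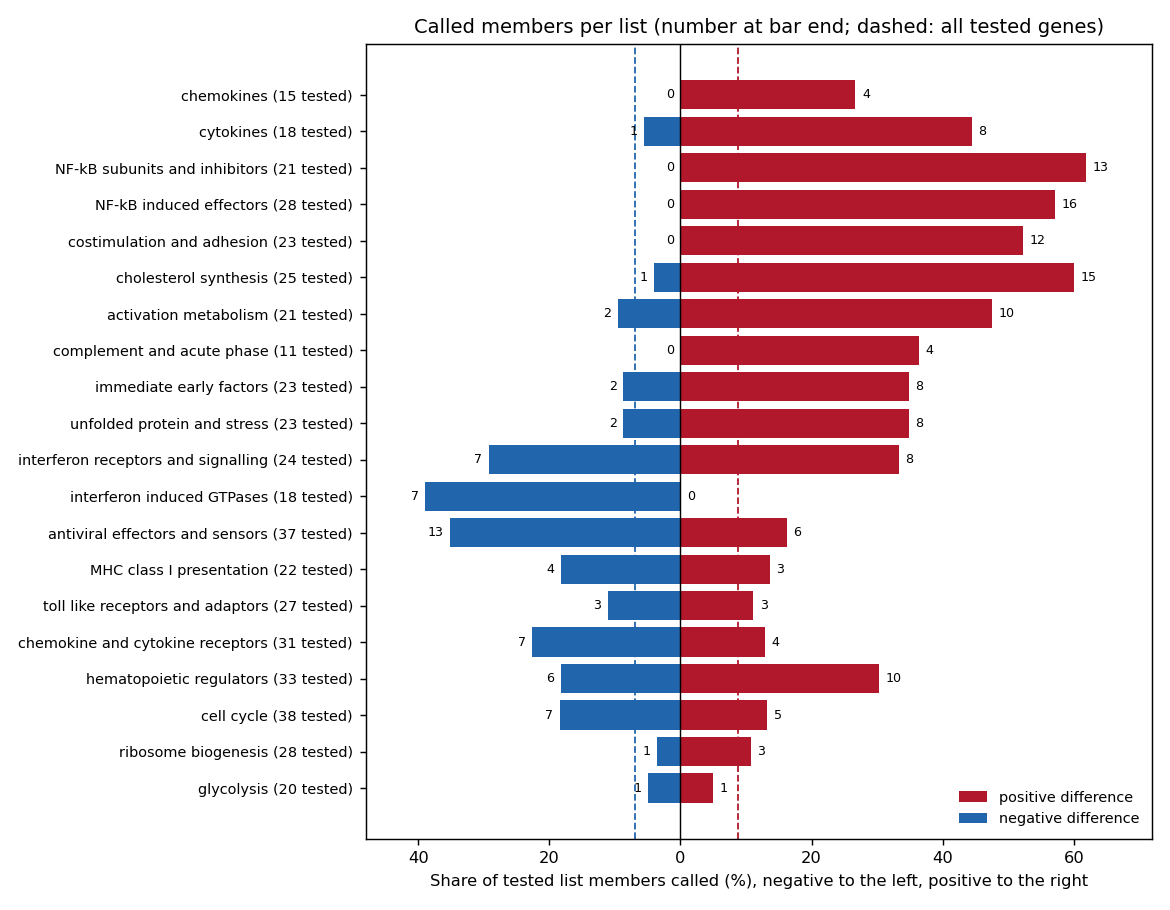
Share of tested members of 20 gene lists with a called positive (right) or negative (left) difference, with the number of genes at each bar end. The dashed lines mark the shares over all tested genes, 8.8% positive and 6.99% negative. The NF-kB subunits and inhibitors have the highest positive share, 61.9%. Next is the list labelled cholesterol synthesis, which also holds the exporter Abcg1, and the GTPase list has negative calls only.

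The difference between genotypes was also measured with each agent alone. With Pam3CSK4 alone 3956 genes (26.6%) differed in their response between genotypes, and with IFNg alone 245 (1.65%). All 3 differences share the same vehicle libraries, so their values are given side by side. Tnfaip3 had 0.27 ± 0.16, 2.21 ± 0.12 and 2.48 ± 0.12 with IFNg, Pam3CSK4 and both. Ccl3 had 0.04 ± 0.09, 2.72 ± 0.09 and 2.44 ± 0.08, and Acod1 0.77 ± 0.27, 3.21 ± 0.22 and 3.54 ± 0.21 in the same order. For these genes Pam3CSK4 alone gave a value several times that of IFNg alone.

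Nlrc5 had -1.5 ± 0.07, -0.09 ± 0.07 and -1.67 ± 0.07 with IFNg, Pam3CSK4 and both. Mpeg1 had -1.3 ± 0.07, -0.04 ± 0.08 and -1.67 ± 0.07, and Gbp7 -0.74 ± 0.10, 0.22 ± 0.12 and -1.06 ± 0.10. Here IFNg alone and both agents gave negative values, and Pam3CSK4 alone gave values between -0.09 and 0.22. Irf1 had -0.51 ± 0.06, -0.47 ± 0.06 and -0.52 ± 0.06, and Cxcr4 -0.41 ± 0.06, -0.7 ± 0.06 and -1.03 ± 0.06, so that each agent alone gave a negative value.

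**Figure D5:**
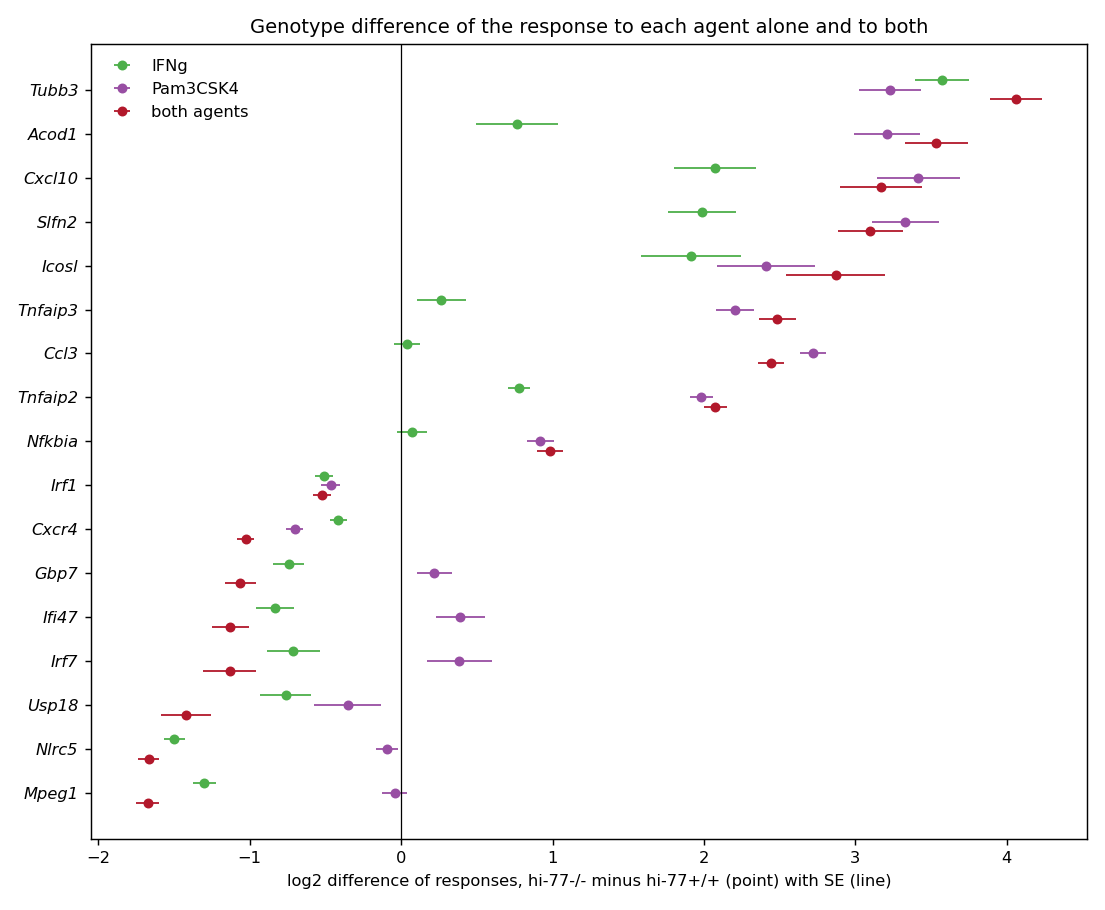
Log2 difference of responses, mutant (hi-77-/-) minus wild-type (hi-77+/+), for IFNg, for Pam3CSK4 and for both agents, in 17 genes, as points with the SE as lines. For Tnfaip3, Ccl3, Tnfaip2 and Nfkbia the Pam3CSK4 and combined points lie to the right of the IFNg points, and for Nlrc5, Mpeg1 and Gbp7 the IFNg and combined points lie on the left and the Pam3CSK4 points near 0.

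The vehicle terms cancel when the combined difference is set against a single-agent one. The combined difference departed from the IFNg difference for 1111 genes (7.47%) and from the Pam3CSK4 difference for 274 (1.84%). The second count was 168 without mutant replicate 1 with both agents, 176 without wild-type replicate 2 with both agents and 178 without wild-type Pam3CSK4 replicate 4. For Tnfaip3 it exceeded the IFNg value by 2.22 ± 0.13 (edgeR adjusted p = 1.4e-14) and was not called against the Pam3CSK4 value (0.28 ± 0.09, adjusted p = 0.107). For Nlrc5 it was not called against the IFNg value (-0.17 ± 0.07, edgeR adjusted p = 0.116) and lay below the Pam3CSK4 value (-1.58 ± 0.07, adjusted p = 5.5e-18). Irf8 was likewise not called against IFNg (edgeR adjusted p = 1) and lay below Pam3CSK4 by -0.73 ± 0.07 (adjusted p = 3.3e-09). Ptgs2 departed from both, by 0.64 ± 0.07 and 0.67 ± 0.08 (edgeR adjusted p = 9.1e-08 and 3.5e-07), and Stx11 exceeded the Pam3CSK4 value by 0.57 ± 0.10 (adjusted p = 2.2e-04).

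Set against the sum of both single differences, the combined difference departed for 137 genes (0.921%), 110 above and 27 below. This count ranged between 50 and 284 when 1 library at a time was left out, 14 libraries each moved it by over 1.5 times, and it was 344 with DESeq2. The 5 called departures of greatest size at 5 CPM or more were all below the sum. They were -4.22 ± 0.95 (edgeR adjusted p = 0.0315) for the noncoding RNA AY036118, -2.74 ± 0.23 (5.0e-09) for Tubb3, -2.31 ± 0.29 (3.4e-05) for Cxcl10, -2.22 ± 0.27 (9.0e-06) for Slfn2 and -1.98 ± 0.29 (1.6e-04) for Tent5c. AY036118 varied widely within groups, at 559, 2745, 3075 and 1994 CPM in wild-type libraries with both agents. Its combined difference was not called in the main fit (0.88, edgeR adjusted p = 0.416) or in any of 44 alternatives. The vehicle terms do not cancel in this contrast, and for all 5 transcripts every mutant vehicle library lay below every wild-type one. The part of these vehicle levels in the departures was not tested. For Tubb3 the single differences were 3.57 ± 0.18 with IFNg and 3.23 ± 0.20 with Pam3CSK4, against 4.06 ± 0.17 with both. Irf1 was above the sum (0.46 ± 0.08, edgeR adjusted p = 0.00289).

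Structural RNAs stood among the called genes with the largest positive difference of CPM changes. Rn7sk, the 7SK RNA that restrains transcription elongation, had 21394, 21221, 41789 and 41920 CPM in mutant libraries with both agents and 30477, 37817, 33997 and 26874 CPM with vehicle, and 13911, 12684, 12431 and 10519 CPM in wild-type libraries with both agents and 36449, 22628, 29496 and 44120 CPM with vehicle. The mutant groups overlapped, replicates 3 and 4 with both agents lay well above replicates 1 and 2, and the wild-type libraries with both agents lay below all others (difference 1.39 ± 0.35, edgeR adjusted p = 0.00855). mt-Rnr2, the large mitochondrial ribosomal RNA, had a difference of 1.65 ± 0.37 (edgeR adjusted p = 0.00284) with the same overlaps between groups. Without mutant replicates 3 and 4 with both agents neither was called. The libraries were made after ribosomal RNA depletion, whose part in these counts was not tested.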

How the data were processed

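RNA from the 32 libraries was sequenced as stranded total RNA after ribosomal RNA reduction, per the labels' protocols. The submitters' processing notes name STAR 2.5.2b, RSEM 1.3.0 and the mouse build mm10, and the annotation release is not given in the sources used here. Deposited gene tables hold expected counts, that is, estimated counts in which RSEM divides reads that match several genes, so genes with near-identical copies are uncertain. Fractional values made up 11.072% of the entries above 0 (tolerance 0.001).

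Expected counts were rounded and all 32 libraries fitted together in edgeR 4.0.16 (R 4.3.3) with TMM scaling, the edgeR expression filter over 8 groups and the robust quasi-likelihood test. The filter kept 14869 of 55487 gene identifiers and left 24 residual degrees of freedom, with a biological coefficient of variation of 7.224%. Contrasts were called at a Benjamini-Hochberg adjusted p under 0.05 over all tested genes, two-sided. The SE of a log2 value is its size divided by the square root of F. CPM values are TMM-scaled. Symbols come from a reference table of gene names (55094 identifiers matched), with GENCODE vM21 where that table had none. Coordinates come from GENCODE vM21 (55394 identifiers matched by gene). Structural RNA genes (6122, all mitochondrial genes included) were taken from the GENCODE gene classes, chromosome M and 5 named genes. The fit was also run on simulated counts with set differences in well-counted genes. That simulation held no genotype difference with vehicle and no shift in the structural RNA share, so it cannot speak to their effect on the counts. Intervals of counting error are not given, since the fits carry the spread between libraries.

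Named genes were a fixed set for both pathways and GATA2, the 12 largest positive and 12 largest negative called differences at 5 CPM in 1 group and 10 counts in each, up to 3 called genes per direction and list at 1 CPM, the 8 largest called in opposite directions, the 6 largest CPM differences each way and the 5 largest departures from additivity. Members and lists were chosen with earlier results of these data known. Alternatives used DESeq2 1.42.0, limma 3.58.1, other filters and scalings, covariates, a replicate block and left-out libraries. Those that leave out 2 libraries together were chosen after seeing the data.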

Additional observations from a re-analysis of the deposited data

Results flagged for a closer look

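Of 348 groups of 4 libraries for the 87 genes checked, 14 held a library whose gap to its nearest neighbour took a share of the group's range above the critical value of Dixon's test, which chance gives in about 1 of 20 groups. In mutant libraries with both agents, replicate 3 was the highest for Nfkbia, at 54.8 CPM with the others between 49.4 and 50.01 CPM, and the lowest for Cxcl10, at 765 CPM with the others between 865 and 883 CPM. In mutant vehicle libraries, replicate 3 was low for C3, at 0.749 CPM against 1.17 to 1.23 CPM, and replicate 4 held the only Il13 count, at 0.0161 CPM. In wild-type libraries with both agents, replicate 2 was high for Cybb, at 0.531 CPM against 0.31 to 0.32 CPM. There, replicate 3 was low for Socs3, at 11.4 CPM against 12.7 to 12.9 CPM, and replicate 4 high for Maml2, at 3.2 CPM against 2.88 to 2.93 CPM.

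The other 7 lay in wild-type vehicle libraries. Replicate 3 was high for Bcl3, at 0.417 CPM against 0.0788 to 0.118 CPM, and low for Cd14, at 4.12 CPM against 4.63 to 4.67 CPM. Replicate 4 was low for Acod1, at 0.5 CPM against 0.708 to 0.721 CPM. Replicate 1 was high for Nox1, at 0.276 CPM against 0.208 to 0.219 CPM, and low for Oasl2, at 0.0394 CPM against 0.167 to 0.192 CPM, and for Hcar2, at 0.0788 CPM against 0.152 to 0.167 CPM. Replicate 2 was low for Il13, at 0.0675 CPM against 0.0953 to 0.0985 CPM. Of these genes, Bcl3 was not called once the library named here was left out, Cd14 was not called in any fit, and the others were called without that library too.

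The genotypes differed by a test of the difference itself for 1308 genes in the positive and 1039 in the negative direction with both agents. Against the IFNg difference 600.0 genes lay above and 511 below, and against the Pam3CSK4 difference 202 lay above and 72 below. Against the sum of both single differences 110 lay above and 27 below.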

How the results depend on the processing

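The count of 2347 genes became 1380 with the structural RNA covariate and 1274 without mutant replicates 3 and 4 with both agents. It stayed within 1.5 times under DESeq2 (2699), RLE scaling (2370), a 1 CPM minimum (2689), no filter (1863), the 16 libraries alone (1894), limma (2421), unrounded counts (2347), structural genes removed (2334), wild-type vehicle replicates 1 and 4 left out (1620) and leaving out 1 library at a time (1753 to 2956). Positive genes were 710 on the 16 libraries alone, 826 with the covariate and 703 without mutant replicates 3 and 4, and 965 to 1761 with 1 library left out. Negative genes were 1635 with the 1 CPM minimum, 554 with the covariate and 571 without mutant replicates 3 and 4, and 788 to 1598 with 1 library left out. Genes with a 2-fold difference numbered 212, 138 without mutant replicates 3 and 4, and 177 to 245 with 1 library left out. The wild-type response fell to 3638 genes with the covariate and was 5777 to 6575 with 1 library left out, and the mutant response was 6096 to 6768.

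Departures from the IFNg difference numbered 768 to 1314 and from the Pam3CSK4 difference 168 to 326 with 1 library left out. Departures from additivity, 137, were 344 with DESeq2, 76 with the covariate, 91 without structural genes, 60 without wild-type vehicle replicates 1 and 4, and 561 without mutant replicates 3 and 4. With 1 library left out they were 50 to 284. The libraries that moved this count by over 1.5 times were mutant replicate 1 with both agents, 1 and 4 with IFNg, 3 and 4 with Pam3CSK4 and 4 with vehicle, and wild-type replicates 1 and 2 with both agents, 1, 3 and 4 with Pam3CSK4 and 2, 3 and 4 with vehicle. The cause of these shifts was not tested.

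Replicate numbers are shared by the groups, but same-numbered libraries did not deviate together (24 pairs, r -0.406 to 0.324, 9 over 0.1). In 7 of the 24 pairs the first library's closest match in the other group carried its own number. The numbers were therefore not used to pair libraries. With the replicate block the count was 2303.

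Of 87 genes checked 82 were called, 67 of them under every alternative run for them (up to 44), and no called gene changed sign. Uncalled genes did: Cd14 (-0.012 with the covariate, -0.059 to 0.162 with 1 library left out), Gata2 (-0.089 without mutant replicates 3 and 4, -0.093 to 0.129 with 1 left out) and Tlr1 (-0.043 with DESeq2, -0.011 with the 1 CPM minimum, -0.015 on the 16 libraries alone, -0.666 to 0.491 with 1 left out). Depth limits genes with few vehicle counts, such as Tgtp2, Fas and Tlr1, whose fold changes rest on them.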

Other observations

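Further lists held called genes, against 8.8% positive and 6.99% negative over all genes. Of 11 genes for decay of inflammatory mRNA 3 (27.3%) had a positive and none a negative difference, with 5 positive under the structural RNA covariate and 2 to 4 when 1 library at a time was left out. Zc3h12a, the RNase regnase-1, had 18.9, 21.9, 24 and 19.9 CPM in mutant libraries with both agents and 4.98, 5.45, 5.09 and 5.17 CPM with vehicle, and 9.75, 7.85, 9.92 and 7.95 CPM in wild-type libraries with both agents and 3.63, 4.05, 4.66 and 4.34 CPM with vehicle. It was higher in mutant libraries in both conditions, by more with both agents (difference 0.94 ± 0.12, edgeR adjusted p = 9.9e-07). Feedback genes of the MAP kinases were split, 4 positive (30.8%) and 3 negative (23.1%) of 13, and 4 and 2 under the covariate. Dusp16, a phosphatase for JNK and p38, rose 2.66-fold in mutant and 1.27-fold in wild-type cells (difference 1.07 ± 0.07, edgeR adjusted p = 1.2e-14), while Dusp6, a phosphatase for ERK, rose 1.1-fold in mutant and 1.58-fold in wild-type cells (difference -0.52 ± 0.04, edgeR adjusted p = 2.2e-11). Of 23 unfolded protein and stress genes 8 (34.8%) were positive and 2 (8.7%) negative, and 10 and 2 under the covariate. One of them was Trib3, a pseudokinase target of ATF4, which rose 3.35-fold in mutant and 1.45-fold in wild-type cells (difference 1.21 ± 0.16, edgeR adjusted p = 1.9e-06). Nlrp3, the inflammasome sensor, had 1.85 ± 0.28 and 0.174 ± 0.056 CPM in mutant cells with both agents and vehicle and 1.65 ± 0.281 and 0.864 ± 0.135 CPM in wild-type cells (SD, n = 4 each), with a difference of 2.5 ± 0.35 (edgeR adjusted p = 3.4e-06) and overlapping levels with both agents.

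Of 38 cell cycle genes 5 (13.2%) were positive and 7 (18.4%) negative, against 8.8% and 6.99% of all genes, with 2 and none under the structural RNA covariate. The negative count was 1 without mutant replicate 4 with both agents, 3 without wild-type replicate 4 with both agents or with vehicle, 4 without mutant vehicle replicate 3 or 4 or wild-type replicate 3 with both agents, and 11 without mutant replicate 1 with both agents. The positive count was 2 or 3 without any of these libraries, without mutant replicate 3 with both agents or without wild-type vehicle replicate 1. Of 23 neutrophil markers 6 (26.1%) were positive and 1 negative, 3 and 1 under the covariate. Of 20 monocyte, macrophage and dendritic markers 4 were positive and 4 negative (20% each), 4 and 2 under the covariate. Of 22 erythroid markers 4 (18.2%) were positive and 1 negative, 2 and none both under the covariate and without mutant replicate 4 with both agents, and of 15 mast cell, basophil and eosinophil markers 1 was positive and 1 negative, none under the covariate. Ighm, the immunoglobulin mu heavy chain, had 1.62 ± 0.25 and 0.675 ± 0.0231 CPM in mutant cells with both agents and vehicle and 0.885 ± 0.109 and 1.67 ± 0.363 CPM in wild-type cells (difference 2.19 ± 0.24, edgeR adjusted p = 2.7e-08). Rag1, the lymphoid recombinase, had 169.7 ± 9.33 and 114 ± 1.41 CPM in mutant cells and 2.58 ± 0.185 and 2.27 ± 0.281 CPM in wild-type cells (difference 0.38 ± 0.08, edgeR adjusted p = 0.00143). The summed level of 19 B lymphoid markers was 372.2 to 400.5 CPM and 396.2 to 415.6 CPM in mutant libraries with both agents and vehicle and 65.91 to 71.46 CPM and 73.34 to 81.24 CPM in wild-type libraries, and its part in these values was not tested. Tfrc, the transferrin receptor of erythroid and dividing cells, had 536 ± 20.4 and 365 ± 17 CPM in mutant cells with both agents and vehicle and 517 ± 16 and 503 ± 50.7 CPM in wild-type cells (difference 0.52 ± 0.08, edgeR adjusted p = 5.2e-05).

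A few scarce transcripts, chosen after their values were seen, had very large fitted differences. Steap4, a metalloreductase, had 5.53, 5.91, 6 and 5.76 CPM in mutant libraries with both agents and 0.0325, 0.0427, 0.0832 and 0.0161 CPM with vehicle, and 0.0516, 0.0685, 0.145 and 0 CPM in wild-type libraries with both agents and 0.0788, 0.0337, 0.0321 and 0.0238 CPM with vehicle. It was high in mutant libraries with both agents and near 0 in the other 3 groups (difference 6.26 ± 0.97, edgeR adjusted p = 1.5e-05). Hcar2, the niacin and hydroxybutyrate receptor, had 2.47 ± 0.0874 CPM in mutant cells with both agents and no counts with vehicle. That mean was 197 times a floor of 3 counts over the unscaled library totals of the mutant vehicle group. Wild-type cells had 1.2 ± 0.234 and 0.139 ± 0.0409 CPM of Hcar2 with both agents and vehicle. Il13, a type 2 cytokine gene, had 0.613 ± 0.128 CPM in mutant cells with both agents and 1 count in all with vehicle, and 0.143 ± 0.0661 and 0.0894 ± 0.0147 CPM in wild-type cells, where the libraries overlapped. Cybb, the catalytic subunit of the phagocyte oxidase, had 0.257 ± 0.088 and 0.0459 ± 0.0221 CPM in mutant cells and 0.368 ± 0.109 and 0.325 ± 0.0992 CPM in wild-type cells (difference 2.13 ± 0.52, edgeR adjusted p = 0.00414), and was not called with the covariate or without mutant replicates 3 and 4 with both agents.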
